A study of Homo sapiens with 32 samples.

Results

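The cytosolic ribosome is built from ribosomal RNA and a set of small proteins that are made in near-equal numbers, and the genes for these proteins were followed here through camptothecin treatment and loss of ATM activity in a pair of human cell lines. The members are the protein-coding genes whose symbol has the form RPL or RPS followed by a number, together with the stalk genes RPLP0, RPLP1 and RPLP2 and the laminin-receptor gene RPSA, and pseudogenes were left out. All 81 of these genes, 32 of the small subunit and 49 of the large subunit, had a row among the 60107 genes of the count table. They include the paralogs RPS27L, RPL3L, RPL10L and RPL39L, which lie at other positions in the genome and encode close relatives of RPS27, RPL3, RPL10 and RPL39.

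Ribosomal proteins assemble with ribosomal RNA in the nucleolus, and a protein that finds no partner is degraded. Most of their mRNAs begin with a cytosine followed by a run of pyrimidines, the 5′ terminal oligopyrimidine (TOP) motif, through which mTORC1 and LARP1 set their translation and stability together. When assembly is disturbed, free RPL5 and RPL11 bind MDM2, so the family is also tied to p53, and RPS27L is itself a known p53 target gene.

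RNA of HEK293T cells (an embryonic kidney line) and U2OS cells (an osteosarcoma line) was counted by 3′ end sequencing in 32 libraries. The labels give camptothecin (CPT), which traps topoisomerase I on DNA, or its solvent DMSO for 24 h followed by 48 h of recovery in HEK293T, and 72 h of untreated growth in U2OS wild-type and ATM KO cells. They give no separate schedule for libraries 26 to 29 (U2OS, camptothecin) and 30 to 33 (U2OS, DMSO). For drug treatments in general, the study's methods give new medium after 24 h and harvest after a further 48 h. ATM KO cells came from CRISPR editing and the picking of single clones, and libraries 18 to 21, labelled HEK293T ATM KO, are taken as cells given the ATM inhibitor KU-55933, with libraries 22 to 25 (HEK293T, DMSO) as controls. Each group had 4 libraries, described as independent repeats in the study's methods.

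Of the 16 libraries numbered 1 to 17, 14 resembled the cell line that their label does not name, by the correlation of their profile with libraries 22 to 25 and 30 to 33, whereas all libraries from 18 on matched their label. The libraries 10, 12, 14 and 16 (labelled U2OS ATM KO) were therefore compared with 11, 13, 15 and 17 (labelled U2OS wild type, and HEK293T DMSO for 17), a regrouping that takes them as HEK293T with camptothecin and with DMSO. The libraries 2, 4, 6 and 8 (labelled HEK293T camptothecin) were likewise compared with 1, 3, 5 and 7 (labelled U2OS wild type for 1 and HEK293T DMSO for the others), taken as U2OS ATM KO and U2OS wild type. These libraries are named by number throughout, and the calls for the labelled groups are given beside those of both comparisons. ATM mRNA, which editing of the gene need not lower, lay between 34.2 and 61.7 CPM (counts scaled to the same total in every library) in libraries 2, 4, 6 and 8, between 53.4 and 68.4 CPM in 1, 3, 5 and 7, between 28.8 and 39.8 CPM in 10, 12, 14 and 16, and between 21.2 and 36.3 CPM in 11, 13, 15 and 17, so its level marked no knockout in either set. The depth, as the sum over genes, lay between 1232674 and 6362433 counts, and 3 counts, taken as the floor, corresponded to 2.43 to 0.472 CPM. In bulk RNA, fewer cells of a kind and less RNA per cell cannot be told apart.

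Because the TOP motif is what most members share, the bases around the transcription start are shown for named members chosen as examples with and without it. RefSeq promoter windows (GRCh38.p14) were available for 64 of the 81 members, with 79 start sites. Each line gives 15 bases before and 15 bases from the start on, 5′ to 3′ in the direction of the gene, with the unbroken run of pyrimidines from the start in capitals. The first group, all with a C start and at least 5 pyrimidines, fell in the comparison of libraries 10 to 17. So did 15 of 17 members tested without such a start, among them RPL3, with a run of 4. The last pair are paralogs without such a start, and RPL10L was not tested in that comparison.
RPL10 (chrX:154398362-154398391, + strand): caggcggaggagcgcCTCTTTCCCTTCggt
RPL13A (chr19:49487593-49487622, + strand): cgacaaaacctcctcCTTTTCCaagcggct
RPL12 (chr9:127451392-127451421, - strand): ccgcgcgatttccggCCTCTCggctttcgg
RPS6 (chr9:19380222-19380251, - strand): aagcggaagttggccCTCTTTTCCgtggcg
RPL39 (chrX:119791616-119791645, - strand): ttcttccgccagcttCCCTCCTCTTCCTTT
RPS27 (chr1:153990747-153990776, + strand): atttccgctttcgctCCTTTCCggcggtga
RPS27L (chr15:63157463-63157492, - strand): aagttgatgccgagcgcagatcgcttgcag
RPL10L (chr14:46651767-46651796, - strand): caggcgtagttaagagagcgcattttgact

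A start at C with at least 5 pyrimidines in a row was found in 46 of the 79 member starts, 58.2%. Windows were available for 14823 protein-coding genes of the table, members included, and 965 of their 20941 starts, 4.61%, were of this kind. Per gene, 46 of 64 matched members had at least 1 such start. The start of RPS27L was a G and that of RPL10L was not followed by a run either, whereas RPS27 had a run of 7 pyrimidines and RPL10 one of 12 at 1 of its 3 listed starts. RPL39 had the longest run, 19 bases, of which the window shows 15. In the windows of 300 bases, CTTTCC on either strand, which can overlap the run at the start, was in 46.8% of member windows and 26.5% of all, and CCGGAAG, a core bound by ETS factors, in 34.2% and 12.9%. The TATA box TATAAA was in 7.59% of member windows and 9.23% of all.

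The members together held a share of all counts that differed mostly by cell line. In libraries 22 to 25 (HEK293T, DMSO) they held 7.94% ± 0.223 (SD, n = 4) of the counts on genes, and in libraries 30 to 33 (U2OS, DMSO) 3.43% ± 0.118 (SD, n = 4). The HEK293T-like libraries 11, 13, 15 and 17 were the highest, at 11.3% ± 0.631 (SD, n = 4), and libraries 10, 12, 14 and 16 held 8.0% ± 0.718 (SD, n = 4). No library of the second set reached the lowest of the first. The share in libraries 18 to 21 (ATM inhibitor) was 8.18% ± 0.883 (SD, n = 4), around that of their controls. Within U2OS, camptothecin libraries 26 to 29 held 2.85% ± 0.230 (SD, n = 4), below every DMSO library in this measure. Libraries 2, 4, 6 and 8 held 3.72% ± 0.583 (SD, n = 4) and libraries 1, 3, 5 and 7 held 3.59% ± 0.465 (SD, n = 4), ranges that overlapped. The sets 11 to 17 and 22 to 25, both taken as HEK293T with DMSO, differed by as much as 11 to 17 and 10 to 16, so the level set across these library series was not compared further. Reads outside annotated genes also differed between these sets: they came to 9.39% to 11% of all counted reads in libraries 11 to 17, 15.8% to 18.5% in 10 to 16 and 23.6% to 30.4% in 22 to 25. With reads not assigned to a gene kept in the total, libraries 11 to 17 held 9.92% ± 0.611 and 10 to 16 held 6.52% ± 0.580. Libraries 22 to 25 then held 5.74% ± 0.339, libraries 2 to 8 2.55% ± 0.635 and libraries 1 to 7 2.60% ± 0.396 (SD, n = 4 each). In U2OS the separation was lost, with library 26 (camptothecin) at 2.17% and library 32 (DMSO) at 2.01%. The cause of these differences was not tested.

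**Figure D1:**
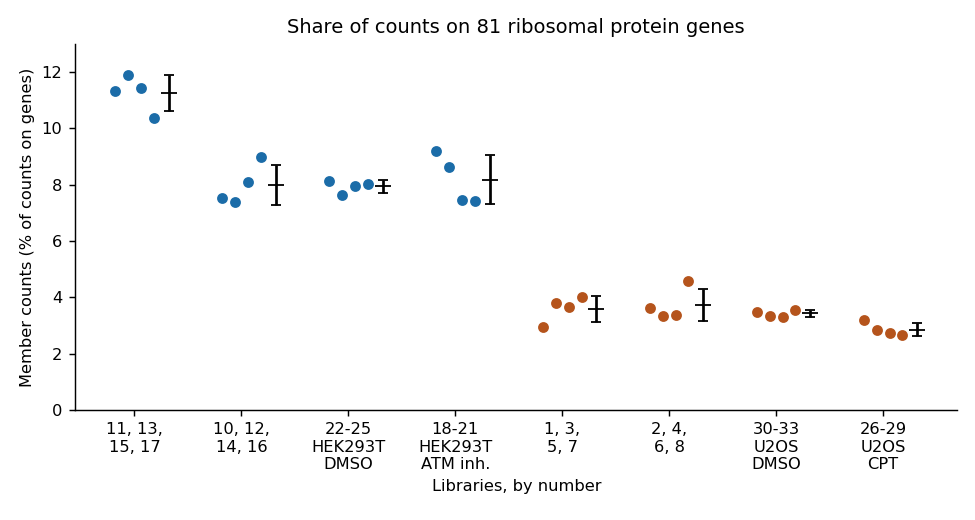
Percent of counts on genes held by the 81 members (vertical axis) in each of the 32 libraries (points), by set and ordered by library number within it, with mean and SD as black bars beside the points. Blue sets are HEK293T-like and orange sets U2OS-like, and the HEK293T-like sets lie between 7.39% and 11.9%, all above the U2OS-like sets.

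Levels differed widely between members. In libraries 22 to 25 the median member was at 884 CPM and the highest, RPS6, the small-subunit protein phosphorylated by S6 kinase, was at 3189 ± 159 CPM (SD, n = 4). The 10 most abundant members held 32.9% of the member counts in these libraries and 37.6% in libraries 30 to 33, where RPS27A, which encodes a fusion of ubiquitin with a ribosomal protein, was the highest, at 1804 ± 230 CPM (SD, n = 4). The method counts 1 tag near the 3′ end of an mRNA, so CPM were not divided by length. Of the 81 members, 76 had annotated pseudogenes, up to 91 for one gene, and reads that cannot be placed between a gene and its copies may have been lost to different degrees, so the order of levels between members is not read as an order of mRNA amounts. The 1132 annotated pseudogenes held 0.0322% to 0.0627% of the counts. Only for RPL17, which had 1253 counts over all libraries, was the sum on pseudogenes large against the gene's own count, at 32%, and the next was RPS3A with 8.84%.

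The first comparison asked how the members stood after camptothecin in the HEK293T-like pair, libraries 10, 12, 14 and 16 against 11, 13, 15 and 17. Nearly the whole family was lower in the even-numbered libraries, by a modest and similar amount for most members, and RPS27L went the other way. Of 80 members tested, 68 were lower and 2 were higher at an adjusted p under 0.05 (edgeR quasi-likelihood test, adjusted over all genes), and 10 were not called. Over all 19464 genes tested, 17.3% were called lower and 17.6% higher. The median log2 fold change of the members was -0.55, against 0.04 over all genes. The change was broad rather than deep: a single member, RPL10, was called below -1, against 4.45% of all genes, and 2 were called above 1, against 9.52%. Both subunits took part, with 24 of 32 small-subunit and 44 of 48 large-subunit members lower and medians of -0.55 and -0.54. For 53 of the 80 members every even-numbered library was below every odd-numbered one in CPM, which held for 14.6% of all genes tested.

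RPL10, whose protein joins the large subunit late in its assembly, was at 238, 219, 229 and 288 CPM in libraries 10, 12, 14 and 16 and at 513, 477, 494 and 562 CPM in 11, 13, 15 and 17. The groups did not overlap, and the log2 fold change was -1.09 ± 0.11 (SE, edgeR adjusted p = 9.9e-08). RPL13A, a large-subunit protein also known from translational silencing in interferon-treated cells, was at 908, 766, 881 and 1063 against 1656, 2110, 1666 and 1541 CPM, a change of -0.97 ± 0.13. RPL12, at the base of the stalk, was at 411, 426, 444 and 604 against 923, 1041, 841 and 743 CPM, a change of -0.94 ± 0.13. In each of these genes the lowest odd-numbered library exceeded the highest even-numbered one. RPL3, which lies near the peptidyl transferase centre, changed by -0.92 ± 0.11, from 510 ± 39.5 to 274 ± 32 CPM (SD, n = 4 each). RPS2, at the mRNA entry channel, changed by -0.90 ± 0.11, from 1780 ± 59.5 to 970 ± 74.1 CPM (SD, n = 4 each). The largest edgeR adjusted p among these 5 genes was 9.9e-06.

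Genes of the stalk and of the 5S particle were lower. The stalk genes RPLP0, RPLP1 and RPLP2, whose proteins recruit elongation factors, changed by -0.57, -0.43 and -0.52, and all 3 were called. RPL5 and RPL11, which carry the 5S RNA and can bind MDM2, changed by -0.60 ± 0.11 (edgeR adjusted p = 0.00028) and -0.38 ± 0.11 (edgeR adjusted p = 0.0098). RPS6 fell from 3865 ± 306 to 2663 ± 133 CPM (SD, n = 4 each), a change of -0.56. RPSA changed by -0.69 and RPL41, the shortest member protein, by -0.61. Of a list of 17 members known as Diamond-Blackfan anaemia genes, which need not be complete, 13 were lower, with a median of -0.51, near that of all members. The 4 of them that were not called were RPS19, RPS24, RPS26 and RPL26, at -0.13, -0.28, 0.07 and -0.46.

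Of the members not called, RPS27A was at 2866, 2231, 2750 and 2860 CPM in the even-numbered and 2898, 4494, 2627 and 2651 CPM in the odd-numbered libraries, a difference of -0.28 ± 0.16 (edgeR adjusted p = 0.17), and library 13 stood far above its group. RPS9, RPS12, RPS20 and RPL24 had values from -0.30 to -0.14, and RPL26, at -0.46, had an edgeR adjusted p of 0.054. RPL39L, the paralog of RPL39, was at -0.10 ± 0.14, while RPL39 itself, in the exit tunnel, changed by -0.35 ± 0.11 (edgeR adjusted p = 0.017) and lost its call without library 10, 12 or 15.

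**Figure D2:**
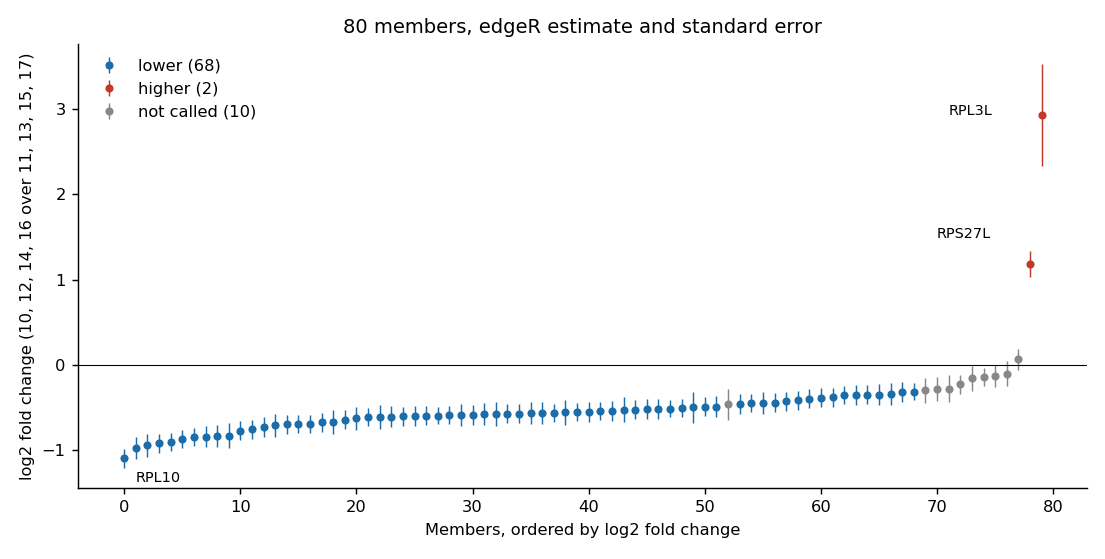
Log2 fold change (vertical axis) of libraries 10, 12, 14 and 16 over 11, 13, 15 and 17 for the 80 members tested, ordered from lowest to highest, with the SE as bars. Blue points are the 68 members called lower, red the 2 called higher and grey the 10 not called: most members lie in a band between -1 and -0.3, with RPS27L and RPL3L at the far right.

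RPS27L (ENSG00000185088, chromosome 15, 63125872 to 63158021, minus strand, GRCh38) was the exception with a high level. It was at 330, 523, 344 and 449 CPM in libraries 10, 12, 14 and 16 and at 178, 127, 240 and 168 CPM in 11, 13, 15 and 17. Every even-numbered library was above every odd-numbered one, and the log2 fold change was 1.19 ± 0.15 (edgeR adjusted p = 2.5e-06). Leaving out any single library kept the call, with values from 1.06 to 1.35. RPS27, its partner, which encodes a nearly identical zinc-finger protein, changed by -0.31 ± 0.12 (edgeR adjusted p = 0.038) with overlapping groups, and lost its call without library 10, 11, 12, 14 or 15, at values from -0.31 to -0.24. RPS27L made up 23.1% ± 3.63 of the counts of the pair in the odd-numbered and 46.1% ± 6.69 in the even-numbered libraries (SD, n = 4 each). RPL3L, the muscle form of RPL3, was called higher on very few reads. It had 27 counts in libraries 10, 12, 14 and 16 together and 4 in 11, 13, 15 and 17, a ratio of 8.80 in CPM with a 95% exact interval of 3.07 to 34.6 for counting error only, and no odd-numbered library reached the floor of 3 counts. RPL10L, the testis form of RPL10, had 1 count in all 8 libraries and was not tested.

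By the labels, libraries 10, 12, 14 and 16 (U2OS ATM KO) were compared with 1, 11, 13 and 15 (U2OS wild type), a control group that mixes both lines by profile. There 0 members were called lower and 1 higher, RPL3L, with a member median of -0.30, and 476 genes were called higher and 302 lower in all (4408 had an unadjusted p under 0.05). DESeq2 was not run on the labelled groups. RPS27L was then at 0.71 (edgeR adjusted p = 0.27) and RPL10 at -0.71 (edgeR adjusted p = 0.40).

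The second comparison, U2OS camptothecin (26 to 29) against DMSO (30 to 33), rests on labels that the profiles match. Here 15 of 80 members were lower and 1 was higher, RPS27L, while 64 were not called. The share called lower, 18.8%, was near the 15.3% of all 19080 genes tested, and 16.6% of all genes were called higher, so this count is not a result about the members. The member median was -0.12, against 0.01 over all genes. No member was called past an absolute log2 fold change of 1, against 5.50% of all genes below -1 and 7.97% above 1. In CPM, every camptothecin library was below every DMSO library for 28 of the 80 members, and this held for 20.1% of all genes tested. TMM factors, which scale out a few very abundant genes, lay between 0.919 and 0.956 with camptothecin and between 0.999 and 1.15 with DMSO, so the fitted changes lay above the plain ratios of CPM.

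RPS27L was at 560, 600, 816 and 930 CPM in libraries 26 to 29 and 425, 482, 388 and 450 CPM in libraries 30 to 33. The groups did not overlap, and the change was 0.90 ± 0.13 (edgeR adjusted p = 1.8e-06), from 0.77 to 1.01 when any single library was left out. It rose in the background of a level that was already above that of RPS27, which was at 74.3 ± 9.62 CPM with camptothecin and 91.9 ± 17.1 CPM with DMSO (SD, n = 4 each) and was not called, at -0.13 ± 0.13. RPS27L made up 82.6% ± 2.94 of the counts of the pair with DMSO and 90.2% ± 3.19 with camptothecin (SD, n = 4 each). Reads that match both genes of the pair could be split between them, and how such reads were treated is not given in the sources used here.

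**Figure D3:**
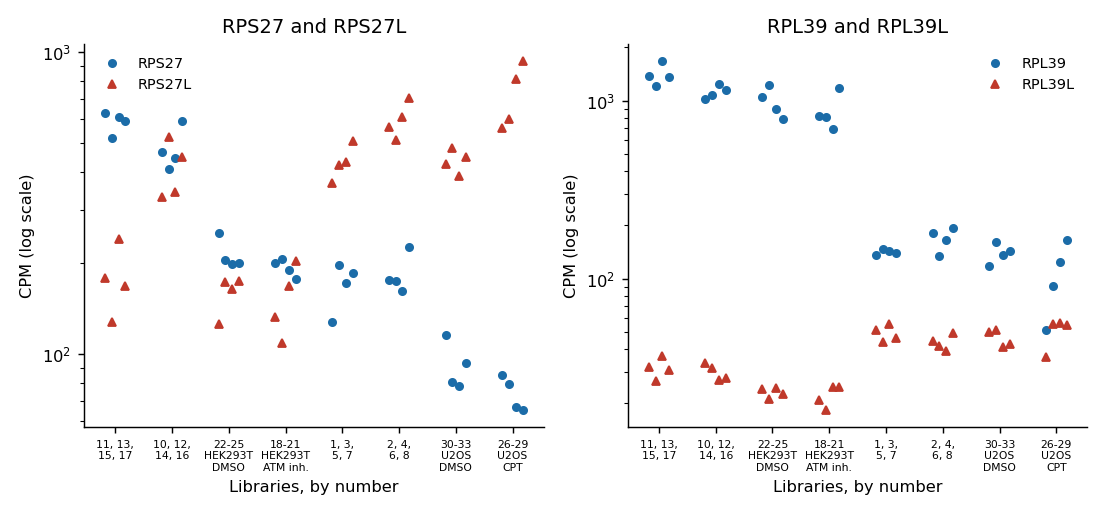
CPM (log scale) of RPS27 and RPS27L (left) and of RPL39 and RPL39L (right) in each library, by set and ordered by library number within it. RPS27L lies above RPS27 in all U2OS-like libraries, and RPL39 lies above RPL39L in all 32 libraries.

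Of the members lower in U2OS after camptothecin, RPS2 was at 217, 163, 149 and 141 CPM against 329, 254, 272 and 316 CPM, a change of -0.63 ± 0.13 (edgeR adjusted p = 0.00022). RPLP0 was at 367, 337, 365 and 376 against 526, 609, 530 and 651 CPM, a change of -0.52 ± 0.11 (edgeR adjusted p = 0.00055). RPS15, a protein of the small-subunit head, was at 169, 166, 156 and 167 against 269, 234, 264 and 330 CPM, a change of -0.58 ± 0.12. In all 3 genes every camptothecin library was below every DMSO library. RPL12 changed by -0.57 ± 0.13. Others called lower included RPS4X, RPS12, RPS16, RPS23, RPL7A, RPL27A, RPL28, RPL32 and RPL35, between -0.46 and -0.31. RPLP0 was lower without its stalk partners: RPLP1 and RPLP2 were at 0.00 ± 0.10 and 0.01 ± 0.11 and turned negative with library size as the only scaling. RPL10 and RPL3, among the most changed members in libraries 10 to 16, were at -0.09 ± 0.15 each and were not called. RPL5, RPL11 and RPS6 were at -0.13, -0.09 and -0.13, and of the 17 listed Diamond-Blackfan genes 1, RPL35, was called. The number of members called lower fell to 7 without library 28 and to 9 without library 33. With library size as the only scaling, which put the median of all genes at -0.16, it rose to 34. Under that scaling 4253 of all 19080 genes were called lower.

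The members' changes in the camptothecin pair of U2OS and in libraries 10 to 17 can be set side by side, since these comparisons share no library. Of the 15 members lower in U2OS, 14 were also lower in libraries 10 to 16, which is 93.3% of the first list and 20.6% of the second. The exception was RPS12. Of all 80 members tested in libraries 10 to 17, 68 (85%) were lower, so an overlap of this size says little about these members. Across the 79 members tested in both, Pearson's r was 0.58 and Spearman's rho 0.41, a description over genes that share libraries within each comparison. RPS27L, at 1.19 in libraries 10 to 16 and 0.90 in U2OS, lay far from the other members, and no coefficient was computed without it. The difference of the 2 changes was tested in 1 model over the 16 libraries. It was called for 29 of 81 members, all with the change in U2OS above that in libraries 10 to 17, against 9.86% of 22363 genes called in that direction and 10.5% in the other. RPS18 and RPL10 were the members called with a difference above 1, against 5.15% of all genes above 1 and 6.71% below -1, and the member median of the difference was 0.40 against -0.06 over all genes. RPS18, in the small-subunit head, differed by 1.07 ± 0.20 (edgeR adjusted p = 5.9e-05), RPL10 by 1.00 ± 0.20 (edgeR adjusted p = 0.00017) and RPL3 by 0.83 ± 0.20 (edgeR adjusted p = 0.0016). For RPS27L the difference was not called. The count of 29 became 18 without library 10, 19 without library 12, 44 without library 16 and 10 with library size as the only scaling, which put the median of all genes at -0.26. Since libraries 10 to 17 are grouped against their labels, the difference cannot be told apart from one of grouping or library series. The study's methods also give a higher camptothecin dose for U2OS than for HEK293T in the proteomics made from the same cells, so dose and line cannot be told apart either. The labelled groups give no such comparison.

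**Figure D4:**
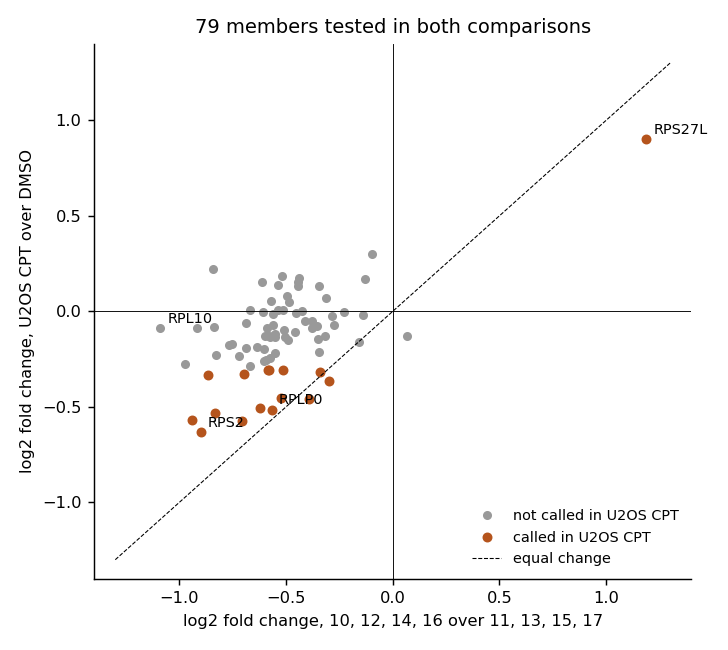
Log2 fold change of each of 79 members in libraries 10, 12, 14 and 16 over 11, 13, 15 and 17 (horizontal axis) and in U2OS camptothecin over DMSO (vertical axis), with the 16 members called in U2OS in orange and a dashed line of equal change. Most points lie left of 0 and above the line, and RPS27L is alone at the upper right, at 1.19 and 0.90.

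In the ATM inhibitor comparison, libraries 18 to 21 against 22 to 25, the members did not pass the test. None of 79 was called in either direction by edgeR's quasi-likelihood test, and neither did DESeq2 call any, while over all 18413 genes 0.00543% were called lower and 0.00% higher. At an unadjusted p under 0.05 stood 4 members, RPS12, RPS27A and RPL26 on the higher side and RPL41 on the lower, and 1019 of all genes. The member values ran from -0.30 to 0.39 with a median of 0.10, 65 of 79 of them above 0. Over all genes 9304 of 18413 were above 0. On leaving out 1 library, the member median ran from 0.035 without library 18 to 0.17 without library 21. RPS27L was at 132, 108, 167 and 203 CPM with the inhibitor and 126, 173, 164 and 174 CPM with DMSO, a difference of -0.01 ± 0.13, with overlapping groups. RPL5 and RPL11 were at 0.15 and 0.13, the stalk genes between 0.04 and 0.06, RPS27 at -0.08, and RPL3, RPL10 and RPL39 at -0.03, -0.04 and -0.13. Without library 21, which had the lowest RPL5, RPS6 and RPL13A of its group, 3 members were called higher. A change of the size that RPS27L had with camptothecin lies outside 2 SE of its value here.

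Libraries 2, 4, 6 and 8 against 1, 3, 5 and 7, taken as U2OS ATM KO against wild type, showed a few members on each side. The knockout cells came from picked clones, so loss of ATM and traits of a clone cannot be told apart here. Of 81 members 7 were lower and 2 higher, where 6.56% of 18591 genes were lower and 6.43% higher. None was called below -1 or above 1, against 2.44% and 2.80% of all genes. The member median was 0.03, against 0.04 over all genes. RPL6 was at 120, 102, 97.0 and 114 CPM in libraries 2, 4, 6 and 8 and at 135, 183, 164 and 201 CPM in 1, 3, 5 and 7, without overlap, a change of -0.70 ± 0.15 (edgeR adjusted p = 0.00043). RPL13 changed by -0.56 ± 0.15, again without overlap. RPL12, RPL4, RPS16, RPL3 and RPL13A changed by -0.50, -0.48, -0.45, -0.43 and -0.43, with overlapping groups. RPL7 was higher by 0.51 ± 0.16 (edgeR adjusted p = 0.019) and RPS27L by 0.43 ± 0.15 (edgeR adjusted p = 0.043). RPS27L was at 563, 511, 608 and 702 against 367, 422, 430 and 505 CPM, which just did not overlap, and its edgeR call was lost on leaving out any single library. RPL7 lost its call without library 1, 5 or 8, RPL13A and RPS16 without any 1 of libraries 2 to 7, RPL3 without 3, 5, 6 or 7, RPL12 without 3, 4 or 6 and RPL4 without 3 or 6, whereas RPL6 and RPL13 kept theirs. RPL10 was at -0.37 ± 0.17 and RPL39 at 0.21 ± 0.15, and RPL5, RPL11, RPLP0, RPLP2, RPS6, RPS27, RPS27A and RPL10L were within 0.09 of 0. Without library 3 or library 6, 2 members were lower, without 5 or 7 it was 4, and without library 8 it was 11. The higher calls numbered 0 without library 1, 5 or 8 and 1 without library 3, 4, 6 or 7. By the labels, libraries 2, 4, 6 and 8 (HEK293T camptothecin) against 3, 5, 7 and 17 (HEK293T DMSO) gave 0 members in either direction, a member median of -0.49, and 16 genes higher and 23 lower in all (2705 at an unadjusted p under 0.05).

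The cell lines differed more in these genes, by the member median, than the groups of any other comparison. In U2OS (30 to 33) against HEK293T (22 to 25), both with DMSO, 70 of 80 members tested were lower in U2OS and 4 were higher, beside 30.1% and 32% of 19739 genes. The member median was -1.08, against 0.01 over all genes, and 43 members were called below -1, against 18.1% of all genes, and 3 above 1, against 21.8%. With library size as the only scaling the median of all genes moved to -0.21 and that of the members to -1.31. RPL39 was at 118, 161, 135 and 143 CPM in U2OS and at 1052, 1217, 895 and 788 CPM in HEK293T, a difference of -2.60 ± 0.13 (edgeR adjusted p = 2.6e-18). RPL10 was at 53.1, 35.1, 37.5 and 36.0 against 320, 263, 283 and 254 CPM, a difference of -2.57 ± 0.12. RPS6 was at 703, 561, 628 and 529 against 3186, 2972, 3348 and 3249 CPM, a difference of -2.18 ± 0.11. These groups lay far apart. RPL36, RPS4X and RPS7 followed, at -1.98, -1.98 and -1.84. RPL5 was lower by -1.53 and RPL11 by -0.94, and in the stalk RPLP2 was at -1.53 while RPLP0 and RPLP1 were at -0.52 and -0.56. The members not called were RPL17, RPL35A, RPS27A, RPS12, RPL37 and RPS20, from -0.51 to 0.22.

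Of the members higher in U2OS, 3 were paralogs. RPS27L was at 436 ± 39.8 CPM in U2OS and 159 ± 22.7 CPM in HEK293T (SD, n = 4 each), a difference of 1.68 ± 0.12 (edgeR adjusted p = 1.5e-14), while RPS27 was lower, at -0.996 ± 0.12. RPL39L was at 46.4 ± 5.10 and 23 ± 1.45 CPM (SD, n = 4 each), a difference of 1.23 ± 0.13 (edgeR adjusted p = 6.5e-10), opposite to RPL39, and made up 25.1% of the counts of that pair in U2OS and 2.34% in HEK293T. RPL10L was at 9.88, 9.29, 7.32 and 10.3 CPM in U2OS and had no count in any of the 4 HEK293T libraries. In all 16 U2OS-like libraries RPL10L was detected, at 12.9% to 27.9% of the counts of RPL10 and RPL10L together in libraries 2 to 8, and in the 16 HEK293T-like libraries it had 1 count in all. RPS26, a small-subunit protein at the mRNA exit, was the other, at 0.39.

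Other genes of the translation apparatus were taken from lists. Of 17 further genes known for a TOP start, among them elongation factors and subunits of eIF3, 12 were lower in libraries 10, 12, 14 and 16, with a median of -0.57, and 0 were higher. Those 12 were 70.6% of the list, against 17.3% of all genes. HNRNPA1, a splicing regulator, changed by -1.01 ± 0.11 and EEF2, the translocase, by -0.65 ± 0.12. In U2OS after camptothecin 2 of the 17 were lower and 1 was higher, PABPC1, the poly(A)-binding protein, at 0.47 ± 0.11. Of all genes 15.3% were lower and 16.6% higher there, so these counts are not a result about the list. Among other protein-coding genes with a C start and pyrimidine run in RefSeq, 264 of 759 (34.8%) were lower in libraries 10 to 16, against 20.5% of 10348 genes without one. Of the members with such a start, 39 of 46 were lower, and of those without it 15 of 17, by the listed start base alone, and this difference was not tested. Of 78 mitochondrial ribosomal protein genes, which serve the other ribosome of the cell, 36 (46.2%) were lower in libraries 10 to 16, with a median of -0.35. In U2OS with camptothecin 7 (8.97%) were lower, a share below that of all genes, with a median of -0.05. With the ATM inhibitor 0 were called. Ribosomal proteins outside the naming pattern were more mixed. RACK1, the small-subunit scaffold, changed by -0.67 ± 0.11 in libraries 10 to 16, whereas FAU, which encodes a fusion with a ubiquitin-like protein, was at -0.22 and was not called. RPL22L1, the paralog of RPL22, went from 107 ± 10.0 to 56.0 ± 9.97 CPM there, a change of -0.96 ± 0.14 (edgeR adjusted p = 8.4e-06), and from 109 ± 18.1 to 166 ± 5.25 CPM in U2OS with camptothecin, a change of 0.77 ± 0.12 (edgeR adjusted p = 7.3e-06), SD with n = 4 each. The difference of these changes was 1.74 ± 0.19 (edgeR adjusted p = 7.3e-10).

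Of 14 regulators of TOP mRNAs and mTORC1 signalling, 6 (42.9%) were lower and 1 (7.14%) was higher in libraries 10 to 16. There 17.3% of all genes were lower and 17.6% higher. In U2OS with camptothecin 3 (21.4%) were lower and 5 (35.7%) higher, beside 15.3% and 16.6% of all genes. MYC, a transcription factor for ribosomal genes, was at 11.5 ± 4.94 CPM in libraries 10 to 16 and 104 ± 47.3 CPM in 11 to 17, a change of -3.27 ± 0.29, and was higher in U2OS with camptothecin by 1.32 ± 0.17 (edgeR adjusted p = 1.9e-07). EIF4EBP1, a translation repressor controlled by mTORC1, was lower in both, by -2.13 ± 0.15 and -0.64 ± 0.20, while its relative EIF4EBP2 was higher in libraries 10 to 16, by 0.49 ± 0.13 (edgeR adjusted p = 0.0038). Also lower in both was DDIT4, an mTORC1 inhibitor, by -2.74 ± 0.17 and -1.37 ± 0.27. The p53-linked mTORC1 inhibitors SESN1 and SESN2 were higher in U2OS by 1.44 ± 0.16 and 1.48 ± 0.12, and in libraries 10 to 16 they were at 0.32 (not called) and -0.45 (lower). The S6 kinase genes were lower in 1 comparison each, RPS6KB2 by -0.42 in libraries 10 to 16 and RPS6KB1 by -0.61 in U2OS, where LARP4, an mRNA-stabilising relative of LARP1, and TSC2, an mTORC1 inhibitor, were higher by 0.95 and 0.47. LARP1, the TOP-binding protein, was lower in libraries 10 to 16 by -0.47 ± 0.11 and was at -0.03 ± 0.11 in U2OS. MTOR was at 0.01 and -0.04 and was not called in either.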

How the data were processed

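The deposited table held raw counts per gene. The authors obtained them on the BlueBee platform with Lexogen's QuantSeq FWD pipeline for libraries with molecular identifiers. The genome build and the handling of multi-mapped reads are not given in the sources used here. Gene identifiers were matched to GENCODE 29, which gave 56531 of 60107 genes a symbol. The 5 summary rows and 92 spike-in rows were left out of library sizes and tests. A gene was tested where 2 or more libraries of the comparison held over 1 count of it. The test was that of edgeR 4.0.16 (quasi-likelihood, TMM scaling, R 4.3.3), with Benjamini-Hochberg adjustment over all genes tested. A member was called at an adjusted p under 0.05. Values after ± beside fold changes are SE. Likelihood ratio and DESeq2 1.42.0 fits, other scalings and filters, a shared fit and leaving out libraries served as alternatives.

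The regrouping of libraries 1 to 17 was checked against control CPM printed in the supplement. The median absolute log10 difference was smallest for libraries 11, 13, 15 and 17 (0.0177, by label 0.166) in the camptothecin sheet, and for 1, 3, 5 and 7 (0.0362, by label 0.162) in the shortened ATM KO sheet.

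Members, lists and tests were chosen with earlier results of these data known. Members named with values were those called past an absolute log2 fold change of 1 (for the cell lines, only examples), the 6 called with the largest change among those over 10 CPM, up to 3 called against the majority, and a fixed set of paralogs, stalk, 5S and other well-known members. Values of a few named genes are not reported here.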

Additional observations from a re-analysis of the deposited data

Results flagged for a closer look

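Among 141 groups of 4 libraries tested for a stray library by Dixon's gap ratio (critical value 0.829), over the summed member share and the members named in every comparison, 10 were picked out, and chance picks about 1 in 20. RPLP1 was at 2145 CPM in library 20, below 2522 to 2597 CPM in the other ATM inhibitor libraries, and at 2763 CPM in library 16, above 2144 to 2248 CPM in libraries 10, 12 and 14. Among the HEK293T DMSO libraries, RPS27 was at 252 CPM in library 22 and RPL3 at 282 CPM in library 23. In U2OS, RPL39L was at 36.2 CPM in library 26 with camptothecin, and with DMSO RPL10 was at 53.1 CPM in library 30 and RPL41 at 356 CPM in library 31. RPS27A was at 4494 CPM in library 13, above 2627 to 2898 CPM in libraries 11, 15 and 17. RPL10L was at 17.45 CPM in library 7 and RPL13A at 515 CPM in library 8, each the highest of its group.

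The change with camptothecin in U2OS differed from the change in libraries 10 to 17, in the edgeR test of the difference, for 29 members. Among the members named in every comparison these differences were 0.83 for RPL3, 0.47 for RPL5, 0.70 for RPL13A, 1.00 for RPL10, 0.50 for RPSA, 0.52 for RPLP2 and 0.61 for RPL41, each with the U2OS value higher.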

How the results depend on the processing

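In libraries 10 to 17, 60 to 73 members were lower on leaving out any library, and RPS27 and RPL39 lost their calls in some of these fits. No paired analysis was run, because the groups compared share no replicate numbers and no label pairs their libraries. In libraries 1 to 8 and 10 to 17 the numbers alternate between the groups, and a fit on that order was not run. Requiring an absolute log2 fold change over 1 left 0 higher and 0 lower members in U2OS camptothecin and in libraries 1 to 8, 1 lower in 10 to 17, 43 lower between the cell lines and 2 in the difference of responses. With library size alone, 34 were lower in U2OS camptothecin, 1 higher and 2 lower in libraries 1 to 8, and 10 higher and 1 lower in the difference of responses. Of all genes, 4253 of 19080 were then lower in U2OS camptothecin. In libraries 1 to 8, 1219 were higher and 942 lower of 18591, and in the difference 1467 higher and 3317 lower of 22363. In libraries 1 to 8, DESeq2 and the fit of all 32 libraries each called 4 higher, and scaling without the members or no filter 1. The filterByExpr filter left 1 higher in libraries 10 to 17, since RPL3L was not tested, and the likelihood ratio test put 1 member lower in the difference. By label, libraries 10 to 16 had 1 higher and 0 lower, and libraries 2 to 8 had 0 and 0. Leaving out 1 library gave 7 to 16 lower and 1 to 2 higher in U2OS camptothecin, 0 to 3 higher with the ATM inhibitor, 2 to 11 lower and 0 to 2 higher in libraries 1 to 8, and 18 to 44 higher and 0 to 1 lower in the difference. Where not stated, the cause was not tested.

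Sign changes were confined, among the named members, to values not called. In U2OS camptothecin RPLP1 became -0.17 and RPLP2 -0.16 with library size alone, and RPLP1 -0.0068 with all libraries in 1 fit. With the ATM inhibitor RPL39L, at 0.00, became -0.00021 (DESeq2), -0.00066 (RLE), -0.059 (library size), -0.0035 (scaling without members), -0.00030 (filterByExpr), -0.0059 (no filter) and -0.011 (1 fit). There library size gave RPLP0 -0.026, RPLP1 -0.0081 and RPLP2 -0.0023. All 8 labelled DMSO controls, which mix both lines by profile, gave RPL39L -0.74, RPL3 0.11, RPL10 0.17, RPL39 0.31 and RPLP0 -0.071. Without a change of sign, RPS27L ran from -0.997 to -0.012 and RPS6 from 0.096 to 0.61 over the alternatives that kept all libraries. In libraries 1 to 8, RPL5 and RPLP0 became -0.0077 and -0.0022 (DESeq2), -0.0070 and -0.0021 (RLE), -0.015 and -0.0095 (scaling without members), and -0.014 and -0.0079 (no filter). By label there, RPL39L was 0.035, RPS27 -0.48, RPL39 -1.17, RPL5 -0.71, RPL11 -0.43, RPLP0 -0.24, RPLP2 -0.62, RPS6 -0.86, RPSA -0.19 and RPS27A -0.22. On leaving out 1 library, values in U2OS camptothecin ran from -0.24 to 0.037 for RPL10, -0.31 to 0.026 for RPL3, -0.48 to 0.022 for RPL39, -0.12 to 0.16 for RPL41, -0.046 to 0.030 for RPLP1, -0.074 to 0.074 for RPLP2 and -0.24 to 0.048 for RPS27A. With the inhibitor they ran from -0.091 to 0.024 for RPL10, -0.11 to 0.057 for RPL3, -0.061 to 0.057 for RPL39L, -0.058 to 0.11 for RPLP0, -0.068 to 0.13 for RPLP2 and -0.14 to 0.098 for RPS27L. In libraries 1 to 8 they ran from -0.059 to 0.16 for RPL10L, -0.072 to 0.081 for RPL11, -0.098 to 0.041 for RPL5, -0.093 to 0.067 for RPLP0, -0.028 to 0.18 for RPLP2, -0.018 to 0.15 for RPS27 and -0.18 to 0.12 for RPS27A. Depth limits RPL3L, RPL10L and RPL17.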
